A study of Mus musculus with 2 samples.

Results

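Axon guidance ligands and receptors were described here as a set of 45 genes, taken by name from a fixed list in GENCODE M21, out of 21853 protein-coding genes. The 12 ligands were the ephrins (Efna1 to Efna5 and Efnb1 to Efnb3), the Slits (Slit1 to Slit3) and netrin-1 (Ntn1). The 33 receptors were the Eph receptors, plexins, neuropilins, Robo receptors, Dcc and the Unc5 receptors. All 45 symbols were found in the annotation. The rule goes by gene name and function and uses no measured value.

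Growing axons are steered by cues that attract or repel the growth cone. Ephrins are bound to the membrane and signal through Eph receptor tyrosine kinases on touching cells, and the ephrin-bearing cell can be signalled to in return. Slits are secreted and repel axons through Robo receptors, netrins attract through Dcc and repel where Unc5 receptors take part, and semaphorins signal through plexins with neuropilins as coreceptors. In the adult hippocampus several of these proteins remain at synapses, where Eph receptors are known for roles in spine shape and plasticity.

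Chromatin accessibility was measured by DNase-seq, in which DNase I cuts DNA that is not wrapped in nucleosomes or covered by protein. The tissue came from female B6CASTF1/J mice aged 2 months, the first-generation offspring of C57BL/6J and CAST/EiJ parents. One label names a layer of the hippocampus and another the hippocampus, and the dissected part is not stated. There was 1 group of 2 libraries, called replicates 1 and 2, with 1 shared donor record and separate biosample records, and nothing says that the tissue came from separate animals, so the spread between libraries may be technical. No treatment or other genotype was compared, so no test between conditions was possible, and genes are not replicates of a condition.

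Replicate 1 had 129779 peaks and replicate 2 had 71895 in the longer of the deposited peak lists, which were used throughout, and 227153 and 118610 footprints, the short stretches of few cuts within accessible sites that protein can leave. Read depth was not given, so fewer accessible sites and a shallower library cannot be told apart. Promoters of excitatory neuron markers had a peak in both libraries for 5 of 5 genes, with summed values of 14.7 and 11.2, and those of the 5 hippocampal subfield markers did too, with sums of 15.0 and 12.3. Several markers of other cells had a promoter peak more often in replicate 1: oligodendrocyte markers at 4 and 1 of 5 genes (sums 3.74 and 1.00), astrocyte markers at 4 and 2 of 5 (3.65 and 1.23, Gfap at neither), microglia markers at 3 and 0 of 5 (1.79 and 0, Cx3cr1 and Aif1 at neither) and endothelium and pericyte markers at 3 and 1 of 5 (1.76 and 0.578, Cldn5 and Flt1 at neither). Counts were equal in the libraries for oligodendrocyte precursor markers (1 of 2, sums 1.64 and 1.52, Cspg4 at neither), choroid plexus markers (1 of 3, 0.849 and 0.671, Aqp1 and Clic6 at neither) and interneuron markers (1 of 4, with none at Gad2, Slc32a1 and Lhx6). In bulk tissue, fewer cells of a type and less accessible DNA per cell cannot be told apart.

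A promoter peak was a peak that overlapped the 1 kb on either side of an annotated start site (TSS) of a protein-coding transcript. The promoter value of a gene was the highest value of those peaks, a signal deposited by the authors whose scale is not stated. The strongest peak of a gene can be a different one in each library. Of the 45 genes, 43 had a promoter peak in replicate 1, against 63.4% of all protein-coding genes, and 38 had one in replicate 2, against 60.4%. Both libraries had one at 37 genes (82.2%, 95% Wilson interval 68.7% to 90.7% for the number of genes only), against 59.0% of all. In the shorter deposited peak lists the count was 35, against 53.2% of all. The other 8 genes had a peak in 1 library (7 genes) or in none (Efna2).

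The values were low for accessible promoters. The median of the mean value was 2.17 over the 37 genes and 3.12 over all 12895 protein-coding genes with a promoter peak in both libraries. Above that overall median lay 7 of the 37 genes, namely Ephb3, Epha7, Efnb2, Epha4, Ephb1, Robo3 and Efna3. The median ratio of replicate 1 to replicate 2 was 0.998 over the 37 genes and 1.23 over all promoters, and at promoters at or under the overall median it was 0.988 for 30 members and 1.05 for all 6448 genes. The ratio of the members therefore lay near that of other promoters of like value.

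**Figure D1:**
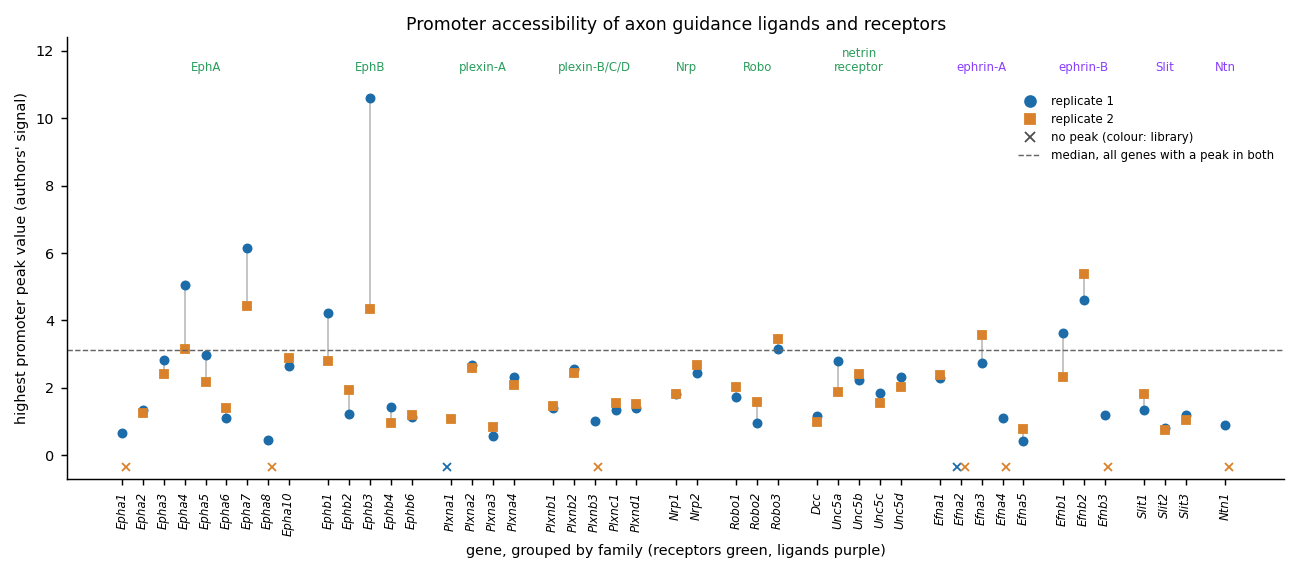
Highest promoter peak value (the authors' signal) of each of the 45 genes in replicate 1 (circles) and replicate 2 (squares), by family. Crosses mark a library with no promoter peak, grey lines join the libraries, and the dashed line is the median of 3.12 over all genes with a peak in both. Ephb3 reached the highest value, 10.6 in replicate 1, and most genes lay under the line.

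Eph receptors, the largest family of receptor tyrosine kinases, had the 2 highest mean promoter values of the set, at Ephb3 and Epha7. Ephb3 had a value of 10.6 in replicate 1 and 4.34 in replicate 2, which were percentiles 95.9 and 76.8 among promoters with a peak in that library. The libraries thus differed by more at Ephb3 than at any other member, and 4.34 lay under the 4.43 of Epha7 in the same library. Epha7, a receptor for ephrin-A ligands, had values of 6.14 and 4.43, and Epha4, which binds ephrins of both classes and is known from hippocampal spines, had 5.06 and 3.14. Ephb1 had 4.21 and 2.81, Epha5 2.97 and 2.17, Epha3 2.82 and 2.42 and Epha10, a receptor without kinase activity, 2.64 and 2.88. At Epha10 the peak lay 812 and 822 bp inside the gene, not at the TSS.

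The promoter sequences of Ephb3 and Epha7 are shown because theirs were the highest mean values of the set. Each is a stretch of the accessible region directly upstream of the TSS, of at most 300 bases, which leaves out the upstream end of the 420 bp Ephb3 region. They are printed on the sense strand of the gene on GRCm38 (mm10), with bases footprinted in both libraries in capitals.
Ephb3, chr16:21204455-21204754 (+): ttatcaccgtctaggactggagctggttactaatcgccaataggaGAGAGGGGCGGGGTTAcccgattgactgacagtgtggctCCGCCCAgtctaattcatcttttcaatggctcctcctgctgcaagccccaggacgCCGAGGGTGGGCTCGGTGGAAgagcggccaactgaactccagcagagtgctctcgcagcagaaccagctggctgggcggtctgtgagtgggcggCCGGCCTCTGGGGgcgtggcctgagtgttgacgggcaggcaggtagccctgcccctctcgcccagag
Epha7, chr4:28812841-28813130 (+): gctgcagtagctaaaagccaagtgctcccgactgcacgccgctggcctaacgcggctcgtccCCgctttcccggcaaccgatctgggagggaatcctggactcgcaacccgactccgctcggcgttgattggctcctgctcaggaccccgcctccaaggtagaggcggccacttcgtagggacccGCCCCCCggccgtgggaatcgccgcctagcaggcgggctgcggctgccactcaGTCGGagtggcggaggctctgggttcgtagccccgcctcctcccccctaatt
In Ephb3, 57 of the 300 bases were footprinted in both libraries, and 2 of the 4 matches to the GC box GGGCGG (read on either strand) lay wholly in capitals. In Epha7, 14 of the 290 bases were, and 4 bases of its 1 GC box match were among them. A match is a description of letters and names no bound protein.

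The remaining Eph receptors had lower values. Ephb2, a receptor for B-class ephrins at excitatory synapses, had values of 1.23 and 1.93 and Ephb4, best known from vessels, 1.43 and 0.949. Epha2 had 1.34 and 1.27, Epha6 1.12 and 1.40 and Ephb6, a receptor without kinase activity, 1.13 and 1.20. The Ephb6 values came from different peaks, at -981 bp from the TSS in replicate 1 and 969 bp inside the gene in replicate 2. Epha1 (0.672) and Epha8 (0.451) had a peak in replicate 1 only. In all, 12 of 14 Eph receptors had a promoter peak in both libraries, with a median mean value of 2.60, and 4 of them lay above the overall median. The EphA median was 2.62 over 7 of 9 genes and the EphB median 1.58 over 5 of 5, and their ranges, 1.26 to 5.28 and 1.16 to 7.48, overlapped.

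Of their ligands, 5 of 8 ephrins (62.5%) had a promoter peak in both libraries, near the 59.0% of all genes. Efnb2, a transmembrane ephrin, led with 4.62 in replicate 1 and 5.39 in replicate 2. Of the 7 strongest members, Efnb2, Efna3 and Robo3 had the higher value in replicate 2. Efnb1, encoded on the X chromosome, had 3.62 and 2.33. Among the lipid-anchored ephrin-A ligands, Efna3 had 2.73 and 3.56, Efna1 2.30 and 2.37 and Efna5 0.424 and 0.784, the lowest mean value (0.604) of the 37 genes in the 1 kb window. In a window of 2.5 kb the mean of Efna5 was 1.46, above the 0.957 of Slit2. Efna4 (1.11) and Efnb3 (1.19) had a peak in replicate 1 only, and Efna2 had none in either library.
The Efnb2 promoter is shown as the strongest ligand promoter, in the same format.
Efnb2, chr8:8661243-8661440 (-): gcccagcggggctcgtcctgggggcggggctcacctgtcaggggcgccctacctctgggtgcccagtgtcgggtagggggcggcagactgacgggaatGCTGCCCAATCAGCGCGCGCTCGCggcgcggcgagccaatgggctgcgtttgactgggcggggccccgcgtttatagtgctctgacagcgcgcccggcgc
It had 24 bases footprinted in both libraries, which form 1 run and hold the match to the CCAAT box CCAATCA (read on either strand). The 3 GC box matches in the same stretch lay outside it. The Epha7 sequence above also holds a CCAATCA match, with no base in capitals. In the RefSeq promoter table of GRCm38 (250 bases before to 50 after a start), where 38 of the 45 genes were found, CCAATCA was present in 5 members (13.2%) and in 10.3% of 16515 protein-coding genes, and GGGCGG in 29 members (76.3%) and 51.0%. CpG-rich promoters, as defined below, made up 75.6% of the set and 46.6% of all genes, and these motif shares were not matched for CpG content.

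Plexins and neuropilins, the receptors of semaphorins, had no promoter above the overall median. Plxna2 had 2.67 and 2.59, Plxna4 2.33 and 2.08, Plxnb2 2.55 and 2.45, Plxnd1 1.41 and 1.51, Plxnb1 1.42 and 1.45, Plxnc1 1.34 and 1.56, and Plxna3, on the X chromosome, 0.584 and 0.846. Replicate 2 had the higher value in 4 of these 7 pairs. The strongest Plxnb2 peak lay 1037 and 1047 bp downstream of an internal TSS, at the edge of the window. Plxnb3 (1.02) had a peak in replicate 1 only and Plxna1 (1.08) in replicate 2 only. The plexin median was 1.46 over 7 of 9 genes. The neuropilins Nrp1 (1.81 and 1.82) and Nrp2 (2.45 and 2.69), coreceptors for secreted semaphorins, both had a peak in both libraries. The Nrp1 values came from different peaks, at -203 bp in replicate 1 and -1083 bp in replicate 2. Its peaks over the TSS had 1.81 and 1.35, and those upstream 1.72 and 1.82. The Nrp1 ratio of 0.998, which is the median of the set, is therefore not that of a single peak.

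Of the Robo receptors, Robo1 and Robo2 bind Slits. All 3 Robo genes had an accessible promoter in both libraries, although none of the 3 was CpG-rich at its first TSS. Robo3, a family member known from axons that cross the midline, had values of 3.14 and 3.46, in a peak at -667 and -637 bp from its nearest TSS. Robo1 had 1.73 and 2.03 and Robo2 0.964 and 1.57. Accessibility was unequal among alternative starts. At Robo1 the most upstream TSS had only weak peaks in replicate 1, at most 0.363, and none in replicate 2, the second TSS had none, and both values above came from the TSS 354843 bp downstream of the first. At Robo2 the order was the opposite, since the 4 TSSs of the 5′ cluster had peaks in both libraries and the 5 TSSs at least 449674 bp downstream had none. Ephb3 had a further peak over a start 6340 bp downstream of the first, with values of 3.87 in replicate 1 and 2.24 in replicate 2. The same peak also fell in the window of a start at 5769 bp.

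The Slits, the secreted Robo ligands, had weak promoters in both libraries at 3 of 3 genes: Slit1 with 1.34 and 1.81, Slit3 with 1.20 and 1.05, and Slit2 with 0.814 and 0.764. Their median of 1.13 was the lowest of any family with a value, below the Robo median of 1.88, and the ranges of 0.789 to 1.57 and 1.27 to 3.30 overlapped. The Slit3 values came from different peaks, at -263 bp from the TSS in replicate 1 and 234 bp inside the gene in replicate 2. Netrin receptors also had peaks at 5 of 5 genes: Unc5b 2.25 and 2.42, Unc5a 2.79 and 1.89, Unc5d 2.31 and 2.03, Unc5c 1.84 and 1.54, and Dcc, the attractive receptor, 1.18 and 0.991. Their ligand Ntn1 had a value of 0.893 in replicate 1, in a peak 1022 bp downstream of a TSS, and none in replicate 2. Mean values of the 5 netrin receptors ranged from 1.08 to 2.34, with a median of 2.17.

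The ligand and receptor promoters compared as follows. Both libraries had a peak at 8 of 12 ligands (66.7%, Wilson interval 39.1% to 86.2%) and at 29 of 33 receptors (87.9%, 72.7% to 95.2%). The intervals are for the number of genes only. Genes are not replicates, so the intervals are no test of ligands against receptors. In replicate 1 alone the shares were 91.7% and 97.0% and in replicate 2 alone 66.7% and 90.9%, so the gap was wider in replicate 2. Efna4, Efnb3 and Ntn1 had a peak in replicate 1 only, and Efna2 in neither. The median mean value was 1.95 for ligands (0.604 to 5.01) and 2.17 for receptors (0.715 to 7.48). That order did not hold in all settings: in the shorter lists, and likewise with equal numbers of peaks, the medians were 2.34 and 2.19. In a window of 500 bp they were 1.95 and 1.72, and in replicate 2 alone 2.07 and 1.98.

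A peak in 1 library only was found at 7 of 45 genes, against 1261 of all 21853 genes (5.77%). The shares are not matched for genes without any promoter peak, which were 7697 of all genes and 1 of the 45. For the 7 genes, the lowest listed FDRs in the library with the peak were 3.12e-10 at Plxnb3, 1.94e-06 at Ntn1, 0.000283 at Efna4, 0.000459 at Epha8, 0.00418 at Efnb3, 0.00860 at Plxna1 and 0.00899 at Epha1. In the other library no base of these promoters was listed under the FDR limit of 0.05. The replicate 1 values of the 6 genes ran from 0.451 to 1.19, below most members. Replicate 1 also had the larger sums over the oligodendrocyte, astrocyte, microglia and endothelium markers given above, and the part of other cells or of fewer listed peaks in these single-library results was not tested.

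**Figure D2:**
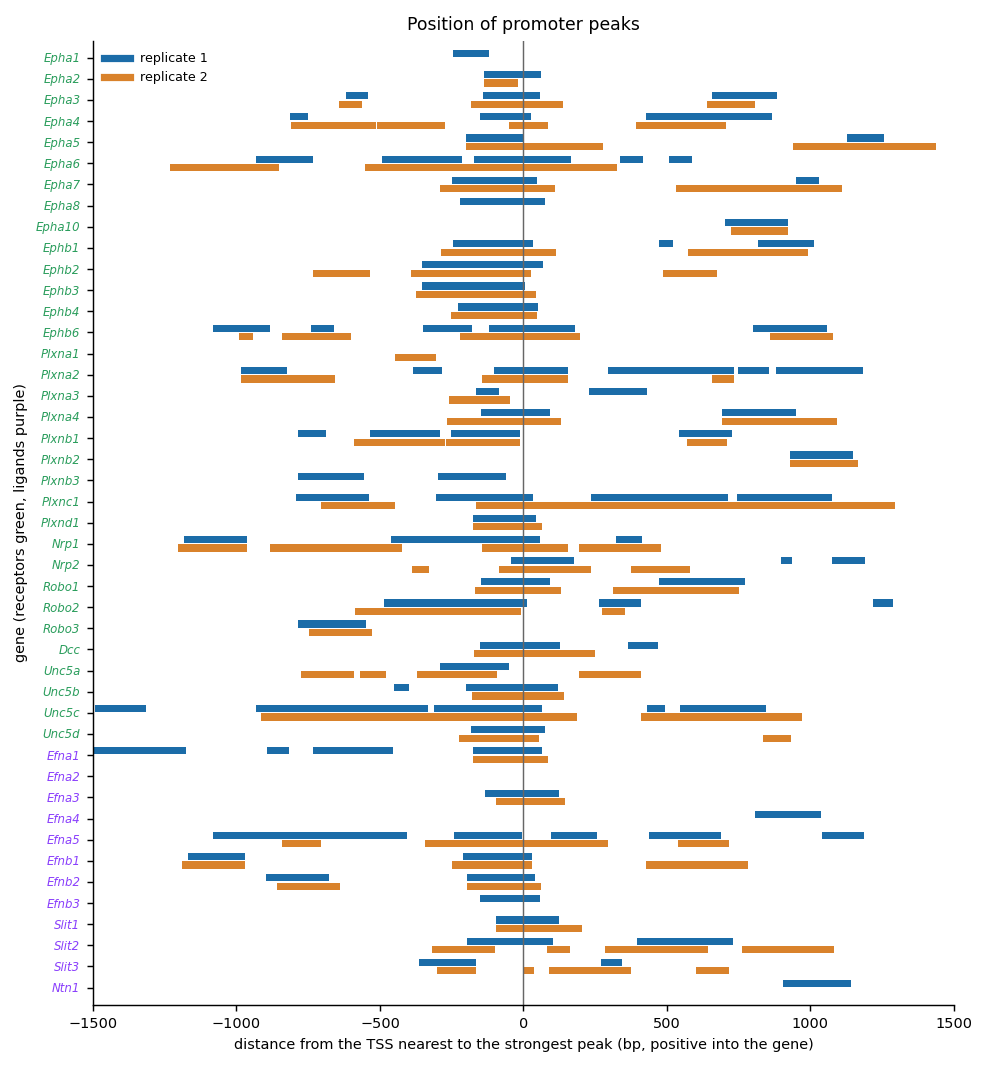
Promoter peaks of each gene in replicate 1 (blue) and replicate 2 (orange), as distance in bp from the TSS nearest to the strongest peak, with positive values inside the gene. Bars are the listed peaks, and peaks at other start sites of a gene can lie outside the axis. In Epha10, Plxnb2, Robo3, Efna4 and Ntn1 all drawn peaks lie over 500 bp from 0, and most other genes have a peak at or near 0.

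Although low, the promoters were widely covered. Peaks covered a median of 15.7% of the promoter window in replicate 1 and 19.5% in replicate 2 over the 37 genes, against 12.6% and 13.0% over all genes with a peak in both libraries. Coverage was above the overall median in both libraries at 21 of 37 genes (4 of 8 ligands and 17 of 29 receptors), against 37.0% of all. Over 40% of the window was covered in both libraries at 4 genes, Plxnc1 (66.6% and 71.1%), Unc5c (58.2% and 69.8%), Efna5 (63.6% and 44.2%) and Epha6 (49.0% and 51.4%), against 1.26% of all. This threshold was chosen after the values were seen. None of the 4 had a mean value above 1.69. Efna5 had 7 and 5 listed peaks in the window, some of which overlapped, and its highest values lay at -754 and -774 bp from a TSS.

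**Figure D3:**
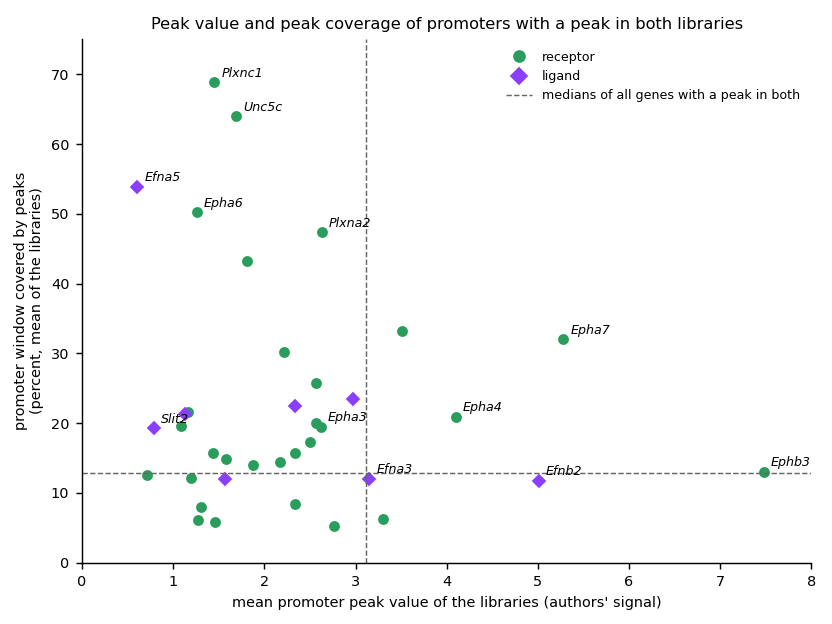
Mean promoter peak value (x axis, the authors' signal) and mean percentage of the promoter window covered by peaks (y axis) for the 29 receptors (circles) and 8 ligands (diamonds) with a peak in both libraries. Dashed lines are the medians over all genes with a peak in both. Plxnc1, Unc5c, Efna5 and Epha6 combine low values with over 40% coverage in both libraries, and Ephb3 and Efnb2 have high values with coverage near the median.

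Promoters rich in CpG had a peak about as often in the set as among all genes. A CpG-rich promoter, with an observed-to-expected CpG ratio above 0.6 in the 500 bp on either side of its first TSS, was found at 34 of 45 genes. Of these, 30 (88.2%) had a peak in both libraries, near the 91.4% of all CpG-rich promoters. Of the 11 other genes, 7 (63.6%) had one, against 30.7% of all such promoters. Robo1 and Robo3 are among the 7 through a peak at a TSS 354843 and 3112 bp downstream of the first, where CpG content was not measured. At CpG-rich promoters with a peak in both libraries the median value was 2.27 for the set and 3.60 for all, and 6 of 30 lay above the overall median, against 58.3% of CpG-rich promoters.

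Promoter footprints were listed in both libraries at 36 of 45 genes, against 56.0% of all. At 34 of the 36 a footprint of one library overlapped one of the other, against 89.3% of all promoters with footprints in both. Ephb3 and Plxna2 had the most overlapping footprints, 6 each, and Epha4 had 4. Unc5b and Unc5c had footprints in both libraries (5 and 3, and 7 and 8) but none that overlapped. Within 20 bp of the middle of the 74 overlapping promoter footprints of the set, GGGCGG was found at 17 (23.0%, in 12 genes), against 27.1% of 27486 such footprints at all promoters. The CCAAT box CCAATCA was at 1 (1.35%), in Efnb2, against 2.21% of all. The ETS-type motif CCGGAAG was at 0 of 74 and 3.85% of all, and the CRE motif TGACGTCA at 1, in Epha2, and 1.73%. A count of 0 of 74 allows a share of up to 4.05%, so a lack of the ETS motif in these footprints was not detectable. In the RefSeq promoters used above, CCGGAAG was present in 2 of 38 members (5.26%) and in 13.4% of all genes.

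Away from promoters, a shared distal region was a merged pair of overlapping peaks, 1 from each library, inside the gene or its 20 kb flanks and outside the 1 kb window of every protein-coding TSS. At least 1 was found for 38 of 45 genes, against 63.2% of all genes, and 251 different regions were counted in all. Slit3 had the most, 20 regions in 627 kb, followed by Robo1 with 16, Plxna4 with 15, Ephb2 with 14, and Epha6, Ephb1 and Dcc with 13 each, and Slit1 and Plxna2 with 11 each. Epha1, Epha2, Ephb6, Plxna1, Plxna3, Plxnb3 and Efna1 had none. Of the 251 regions, 182 (72.5%) lay in introns, 17 in exons, 31 in the upstream and 21 in the downstream flank.

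Many of these genes are long, so counts were set beside length. The median was 2.92 regions per 100 kb, against 1.64 over all genes. More regions than the median of their length decile were found for 32 of 45 genes (71.1%), against 41.5% of all. In the longest decile, which held 22 members, the median was 2.73 per 100 kb against 1.73 for all 2186 genes of that decile, and the members were also longer there, with a median span of 363 kb against 226 kb. In the other deciles it was 2.97 per 100 kb for 23 members against 1.62. Ligands had a median of 3.38 per 100 kb (0 to 10.8) and receptors 2.71 (0 to 6.13). The ligand median was the higher one in each alternative processing tried, but with no flank the medians were close, 2.31 and 2.16. Flanks make up more of the span of ligands, whose median gene length was 28.3 kb against 115 kb for receptors. Footprints that overlapped between libraries were also counted over the gene and its flanks, with promoters of the gene and of its neighbours included. Their median was 5.16 per 100 kb, against 4.17 over all genes. The ligand median was 8.91 and the receptor median 4.82. Efna2 (23.7), Efna4 (20.2) and Plxnb2 (18.4) had the most per 100 kb, and Plxna1 had none. The spans of Efna2, Efna4 and Plxnb2 hold TSSs of other protein-coding genes, such as Cirbp, Adam15 and Mapk11. Efna2 had no footprint at its own promoter in either library.

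**Figure D4:**
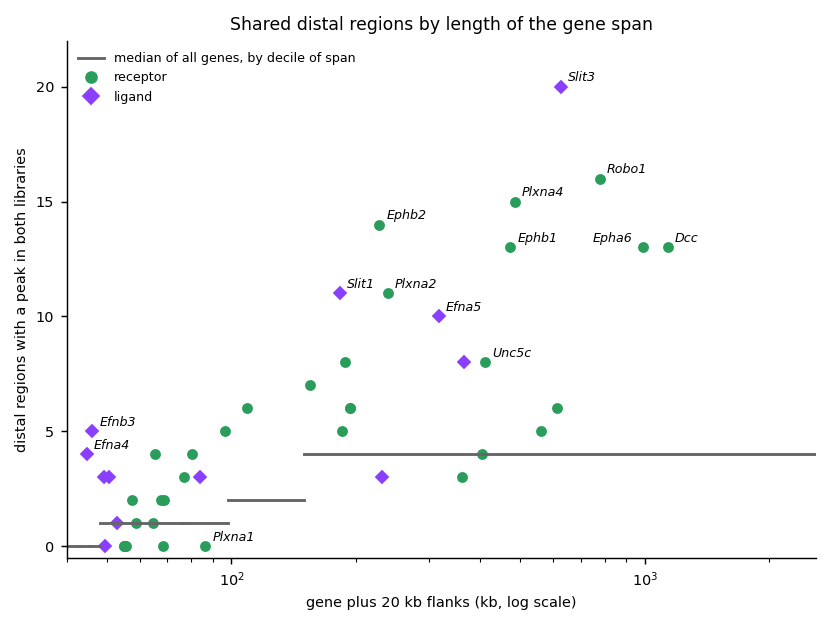
Number of distal regions with a peak in both libraries (y axis) against the length of the gene with its 20 kb flanks (x axis, kb, log scale) for receptors (circles) and ligands (diamonds). Grey lines are medians over all protein-coding genes by length decile. Slit3, Robo1, Plxna4 and Ephb2 lie highest, and 32 of 45 genes lie above the line of their decile.

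The highest densities were those of the short ligand genes Efnb3 and Efna4. Efnb3 had 10.8 regions per 100 kb, Efna4 8.96, Efna3 6.11 and Efna2 5.94, and among other members Ephb2 and Plxnb2 had 6.13 each and Unc5b 5.51, and Slit1 had 11 regions in 183 kb. Other short ligand genes had few, with 1.89 per 100 kb at Efnb1 and 0 at Efna1. Only 1 of the 5 Efnb3 regions and 1 of the 4 Efna4 regions had a TSS of that gene as the nearest protein-coding TSS. All 3 Efna3 regions were also counted for its neighbour Efna4. The strongest distal region of the set, 10.9 and 6.28 at chr10:80159801-80160140, was in the upstream flank of Efna2 but lay 6.01 kb from the TSS of Cirbp, a cold-inducible RNA-binding protein, and 19.5 kb from Efna2. The next strongest were a region 1.31 kb upstream of Epha4 (4.32 and 3.90) and the intronic Ephb2 region shown with the sequences, and a flank region of Ephb4 (4.77 and 2.90) lay nearer to Slc12a9. A member TSS was the nearest for 45 of 68 ligand regions (66.2%) and 154 of 183 receptor regions (84.2%).

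Distal regions of ligands had higher values than those of receptors, a description without a test. Regions were ranked by value among all 40460 shared distal regions in each library, and the percentiles of the libraries were averaged. Above the 50th percentile lay 43 of 68 ligand regions (63.2%) and 77 of 183 receptor regions (42.1%), against 49.2% of all. Slit1 and Slit3 supplied 23 of the 43. Median values in the libraries were 1.35 and 1.16 for ligands, 0.920 and 0.825 for receptors and 1.08 and 0.846 for all regions. With only regions nearest to a TSS of their own gene, an alternative chosen after the data were seen, the shares were 57.8% and 40.9%. Footprints that overlapped between libraries were found in 129 of the 251 regions (51.4%), close to the 52.5% of all.

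The strength of distal regions varied widely from gene to gene within each role. Of the Slits, Slit1 had 10 of 11 regions above the 50th percentile, with median values of 2.06 and 1.54, and Slit3 had 13 of 20, with 1.35 and 1.20. Slit2 had 0 of 8, with medians of 0.760 and 0.578 and no footprint shared between libraries. All 9 ephrin-B regions and all 7 Nrp2 regions lay above it. By contrast, 1 of 13 regions of Dcc did, with medians of 0.601 and 0.444, 2 of 13 of Ephb1 and 1 of 8 of Unc5c. Ephb1 thus joined a promoter above the overall median to mostly weak distal regions, and Slit1 the reverse. Among Eph receptors Ephb2 had 9 of 14 above it. A region can lie nearer to another gene. A TSS of the same gene was the nearest protein-coding TSS for 8 of 20 Slit3, 7 of 11 Slit1 and 5 of 9 ephrin-B regions. For Nrp2 it was so at all 7 and for Slit2 at all 8.

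**Figure D5:**
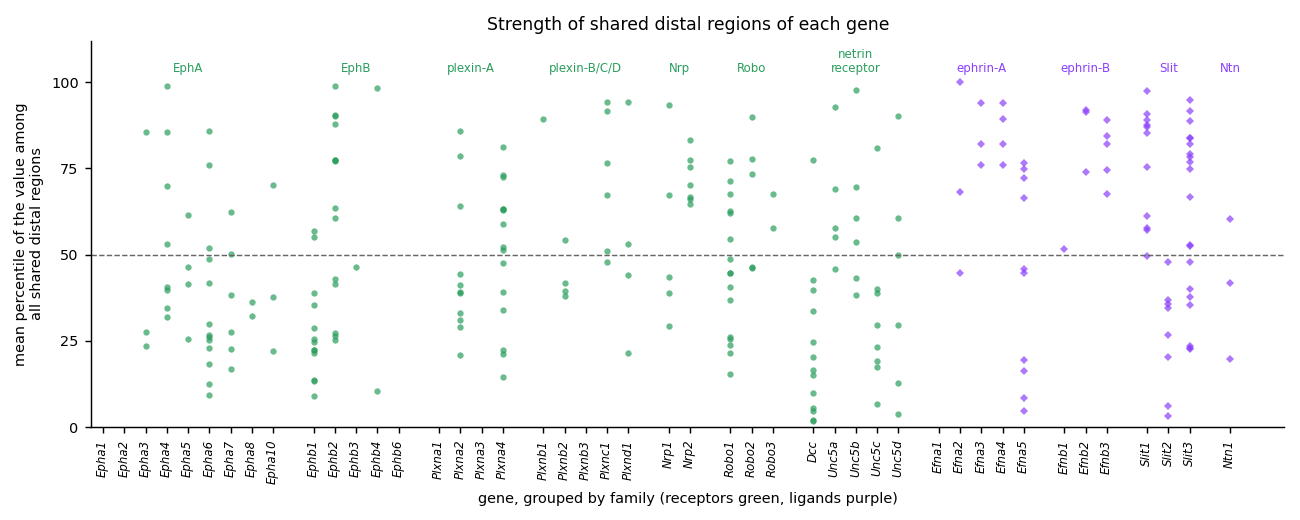
Each point is 1 shared distal region, placed at its gene (x axis) and at the mean over libraries of its percentile among all shared distal regions (y axis, receptors green, ligands purple). The dashed line is the 50th percentile. All Slit2 regions lie under the line, all Efnb2, Efnb3 and Nrp2 regions above it, and 12 of the 13 Dcc regions under it.

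The highest-ranked distal region of each of 4 genes is shown, to set a pair of intronic regions beside one near another gene and one shared by a pair of ligands. They are printed on the sense strand of the gene on GRCm38 with bases footprinted in both libraries in capitals. The Ephb2 (4.32 and 3.67) and Slit1 (4.01 and 2.59) regions lie in introns, 47.9 and 45.8 kb from the nearest TSS of their gene. The Unc5b region (3.72 and 2.95) lies in the downstream flank, nearer to the TSS of Slc29a3, a nucleoside transporter, at 7.80 kb. The Efna3 region (3.80 and 1.82) is the intronic one also counted for Efna4.
Ephb2, chr4:136741841-136742120 (-): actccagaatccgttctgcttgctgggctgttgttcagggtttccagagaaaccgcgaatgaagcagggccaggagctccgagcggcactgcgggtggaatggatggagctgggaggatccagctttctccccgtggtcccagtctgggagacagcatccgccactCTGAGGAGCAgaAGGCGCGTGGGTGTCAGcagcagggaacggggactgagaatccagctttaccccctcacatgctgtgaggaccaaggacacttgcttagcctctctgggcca
Slit1, chr19:41697501-41697800 (-): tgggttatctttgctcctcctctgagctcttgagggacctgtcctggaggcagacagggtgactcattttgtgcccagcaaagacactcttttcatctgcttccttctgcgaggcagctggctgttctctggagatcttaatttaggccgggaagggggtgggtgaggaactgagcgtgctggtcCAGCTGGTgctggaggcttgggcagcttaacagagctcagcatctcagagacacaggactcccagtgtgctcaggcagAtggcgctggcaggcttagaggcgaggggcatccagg
Unc5b, chr10:60760481-60760680 (-): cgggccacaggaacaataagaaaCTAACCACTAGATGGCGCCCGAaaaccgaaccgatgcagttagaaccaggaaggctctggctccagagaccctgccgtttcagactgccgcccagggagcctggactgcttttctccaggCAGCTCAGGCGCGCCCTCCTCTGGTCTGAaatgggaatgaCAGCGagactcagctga
Efna3, chr3:89316932-89317100 (-): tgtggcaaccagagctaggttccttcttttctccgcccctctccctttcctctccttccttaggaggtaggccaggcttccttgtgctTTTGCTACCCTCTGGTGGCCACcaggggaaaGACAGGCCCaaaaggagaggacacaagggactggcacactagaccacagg
The Unc5b region had the most bases footprinted in both libraries, 56 of 200, and its match to the CTCF consensus lay wholly within them, all 12 bases. The E-box match CAGATGG in the Slit1 region had 1 base in capitals, and the AP-1 match TGANTCA there had none.

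Across the 179 overlapping footprints in distal regions of the set, CAGATGG, the E-box form that proneural factors such as the NeuroD family bind, was found within 20 bp of the middle of 21 (11.7%, in 10 genes), against 8.82% of 30536 distal footprints. The CTCF consensus was found at 14 (7.82%, in 12 genes), a lower share than among all distal footprints (3068 of the 30536). The NFI motif TTGGCA was at 10 (5.59%), a slightly lower share than among all distal footprints (1831 of the 30536). The RFX consensus was at 2 (1.12%) against 0.262% and the AP-1 motif at 1 (0.559%) against 1.42%. All motifs were read on either strand, and neighbouring footprints can share a window. The RFX share rests on 2 footprints.

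The rest of the pathway was taken from a list of 67 genes that are not in the set. Of the semaphorins, the ligands of plexins, 15 of 20 had an accessible promoter in both libraries, with a median mean value of 1.86. Sema4b (5.82 and 4.74) and Sema4c (3.53 and 2.85) were the strongest, and Sema3b had none. Other ligands and coreceptors had one at 11 of 18 (61.1%), near the 59.0% of all genes. Their median was 1.89, led by Rgmb, a repulsive guidance molecule (9.06 and 6.11), and its receptor Neo1 (4.20 and 4.68). Ntn3, Draxin, Robo4 and Flrt1 had none in either library. Intracellular effectors had one at 29 of 29, with a median of 2.48, led by Dpysl2 (10.5 and 6.55), a collapsin response mediator, and the Slit-Robo GTPase activator Srgap2 (9.96 and 6.68). Above the overall median of 3.12 lay 10 of the 29 effectors, 3 of the 11 other ligands and coreceptors and 2 of the 15 semaphorins.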

How the data were processed

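DNase-seq was done on 2 libraries of 1 group, per the labels. Each library had 2 deposited peak lists, footprints and bases with an FDR, all under 0.05 as tested on the files, all placed on mm10 (GRCm38), per the labels. Aligner, callers and the treatment of CAST/EiJ alleles were not given in the sources used here. The lists are separate for each library, not pooled. Peak values are the authors' signal, as deposited. They are whole multiples of 1 step per library (100% within 0.05 steps), and their scale is not stated. The FDR, a q-value, is as deposited, and each footprint carries 0.01, which was not used.

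GENCODE M21 and the RefSeq GRCm38.p6 sequence were used with Python 3.11.15, NumPy 2.4.6 and pysam. Overlap meant at least 1 bp. Values are given per library or as the mean of both, with no test. Motifs (14) were the GC box, the ETS, CRE, AP-1, E-box, NFI and CCAAT motifs spelled out with the results, the Egr motif GCGTGGGCG, which can overlap a GC box, the homeodomain core TAATTA, and the NRF1, Mef2, CTCF, RFX and REST consensus, searched on both strands. Sequences printed exclude annotated exons.

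The members and lists were chosen with earlier results of these data known. All members are accounted for. Values per library go at least to the 2 strongest of each family, those with a peak in fewer than both libraries and the 8 with most distal regions, and pathway genes are named where they are the 2 strongest of a group or have no peak. Alternatives were shorter lists, equal numbers of peaks, other windows, flanks and overlaps, the 5′ end alone, promoter regions kept, and each library alone. Procedures were tested on simulated data. One marker gene is not reported by name here.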

Additional observations from a re-analysis of the deposited data

How the results depend on the processing

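The count of genes with a promoter peak in both libraries was 37 and ran from 35 to 43 over all alternatives, and that of genes with promoter footprints in both was 36, with a range from 34 to 43. Leaving out 1 library gave shares with a promoter peak of 66.7% to 91.7% for ligands and 90.9% to 97.0% for receptors, median promoter values of 1.20 to 2.07 and 1.83 to 1.98, and distal regions per 100 kb of 5.18 to 8.13 and 2.71 to 5.48. The receptor median of 2.17 was 1.72 in a window of 500 bp and 1.81 with the 5′ end of the gene model only. Distal regions per 100 kb of ligands were 6.25 with promoter regions kept, and those of receptors 0.620 in the shorter lists. Other settings moved these results by less than the spread used as the limit. The shorter lists lost Dcc and Slit3, equal numbers of peaks lost Plxna3 and Efna5, a window of 500 bp lost Epha10 and Robo3, the 5′ end alone lost Robo1 and Robo3, and a window of 2.5 kb added Plxna1 and Efnb3. Of the 37 genes, the mean value moved by more than the spread between libraries at 3 in a window of 500 bp, 7 in one of 2.5 kb, 4 with the 5′ end alone and 0 with shorter lists or equal numbers of peaks. No paired analysis was possible because there was only 1 group. With 2 libraries and no read depth, the absence of a peak cannot be told apart from too few reads to list one.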
